A study of Homo sapiens with 9 samples.

Results

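The genes ZHX1, ZHX2 and ZHX3 were followed through maps of accessible chromatin in T47D, an oestrogen receptor positive luminal breast cancer cell line. The assay was ATAC-seq: a transposase inserts adapters where DNA is open, and the inserted sites are sequenced. The 9 samples formed 3 groups of 3: T47D cells with the control hairpin shCtrl under Normoxia, T47D cells with shCtrl under Hypoxia, and T47D cells with shZHX2, a hairpin against ZHX2, under Hypoxia. All groups shared the cell line and, per the labels' protocols, lentiviral infection with drug selection. The sources used here do not give the hairpin sequences, the oxygen level, the time in hypoxia or whether samples were separate cultures. The model is 1 cell line, and no shZHX2 group was in normoxia here, so an effect of the hairpin that needs hypoxia and one at any oxygen level cannot be told apart. Each group was deposited as 1 list of called regions, so every value below belongs to 1 list, has no spread between replicates and carries no test. A region is termed called in a list if the authors' list holds it. A higher value may reflect more cells with an open site or a more open site per cell, and these cannot be told apart.

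Members were regions that touched the RefSeq span of ZHX1, ZHX2 or ZHX3 (GRCh38), or that lay within 50 kb of either end with no protein-coding gene nearer. They numbered 28 of the 90962 normoxia regions, 24 of the 77451 regions of the hypoxia shCtrl list and 18 of the 62779 regions of the hypoxia shZHX2 list. Regions of different lists that shared at least 1 bp were merged into sites, which gave 29 sites of 97804 in all. ZHX2 held 18 of these sites, ZHX3 held 10 and ZHX1 held 1.

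The ZHX (zinc fingers and homeoboxes) proteins carry zinc fingers and several homeodomains, form dimers with one another and bind the A subunit of the CCAAT-binding factor NF-Y. They were described mainly as transcriptional repressors, and ZHX2 is known in liver for silencing alpha-fetoprotein after birth. ZHX2 is also a substrate of the VHL ubiquitin ligase, which recognises it after prolyl hydroxylation, a reaction that needs oxygen, and ZHX2 protein accumulates when VHL is lost.

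The start of each ZHX gene was accessible in every list. Over all 20036 protein-coding genes, 74.2% had a called region within 1 kb of either end in normoxia. The share was 72.3% in hypoxia with shCtrl and 70.0% with shZHX2. It counts both ends of a gene, so it is a wider measure than the start alone. ZHX1 had its single region at the start, and ZHX2 and ZHX3 had many more sites inside the gene. Of the 29 sites, 17 (58.6%) were called in all 3 lists, and 57100 of all 97804 sites (58.4%) were. Another 6 (20.7%, against 15.3% of all sites) were called in both shCtrl lists, and 4 (13.8%, against 16.7%) in normoxia alone. A single ZHX2 site (3.45%, against 4.34%) was called in hypoxia with shCtrl alone, and another (3.45%, against 2.44%) in normoxia and with shZHX2. None was called with shZHX2 alone, a class of 2.05% of all sites, or in the 2 hypoxia lists without normoxia, a class of 0.750%; under 1 of 29 sites would fall in either class at those shares. The largest gap between the ZHX genes and all sites was in the class of both shCtrl lists. It rests on 6 sites and is not read as a trait of the ZHX genes.

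ZHX1 (gene ID 11244; chr8:123248456-123275541) is the shortest of the genes, with a span of 27086 bp. Its region lay just inside the end of the span where transcription starts, at chr8:123273489-123275483 in normoxia, chr8:123273525-123275460 in hypoxia with shCtrl and chr8:123273594-123275486 with shZHX2. Its width was 1995, 1936 and 1893 bp. The fold enrichment, the authors' ratio of signal in the region to the local background, was 4.37 in normoxia, 4.54 in hypoxia with shCtrl and 4.63 with shZHX2. The −log10 q of the same region, the authors' measure of confidence in the call, was 586, 576 and 583. Its fold, confidence and width were thus close in all 3 lists. A single region in every list is common: 3498 of 20036 protein-coding genes (17.5%) had exactly 1 in each. Adjacent sites were nearer to other genes and were not counted: a region 6797 bp away in normoxia lay over C8orf76, with which ZHX1 forms a readthrough transcript, and one 35056 bp away lay nearer to ATAD2.

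ZHX2 (gene ID 22882; chr8:122780379-122974510) spans 194132 bp and was the most densely marked. It had 17 normoxia regions, 16 hypoxia shCtrl regions and 12 hypoxia shZHX2 regions, and 15, 14 and 11 of them lay in the gene span. Among 18261 protein-coding genes with a region in normoxia only 348 had more, and the median was 3. The gene is long, but of 877 genes within 0.8 to 1.25 times its length the median held 6 regions in the span in normoxia, 5 in hypoxia with shCtrl and 4 with shZHX2, and 65, 44 and 41 of them held more than ZHX2. As a locus, ZHX2 was therefore in the upper range for its length in every list.

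The start of ZHX2 carried 3 called sites within 6 kb. The region over the annotated start lay at chr8:122780093-122781517 in normoxia, chr8:122780078-122781496 in hypoxia with shCtrl and chr8:122780093-122781518 with shZHX2. Its fold was 3.12, 3.37 and 3.39, and its −log10 q was 159, 173 and 178. The next site, centred 2.4 kb into the gene, had folds of 3.07, 3.00 and 2.99. The third of them, 5.7 kb into the gene, had folds of 2.40, 2.14 and 2.19. Among the 3 lists the region over the start differed little in width (1425, 1419 and 1426 bp) and had a slightly higher fold in both hypoxia lists than in normoxia. A hairpin lowers RNA rather than accessibility, so these values do not check the knockdown. The non-coding gene ZHX2-AS1 overlaps this end of ZHX2, and ATAC-seq cannot assign the open chromatin to either gene.

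These ZHX2 start sites combined a low fold with a call of higher rank. In hypoxia with shCtrl the region over the start stood at percentile 28.4 of its list by fold and at percentile 83.2 by −log10 q. The site 2.4 kb in stood at percentiles 15.8 and 74.9, and the site 5.7 kb in at 1.28 and 34.5. A lead of at least 50 percentile points of −log10 q over fold, a limit set after the values were seen, was met by 3 of 28 member regions in normoxia, 2 of 24 in hypoxia with shCtrl and 3 of 18 with shZHX2. They were ZHX2 start sites and, with shZHX2, also the ZHX1 start. Over all regions 1.88%, 1.51% and 2.04% met it, and over regions within 1 kb of an end of a protein-coding gene 4.55%, 3.49% and 4.42%. The sites centred 2.4 and 5.7 kb into ZHX2 lay outside that 1 kb window, so the gene-end shares apply only to the regions over a start. Fold is relative to the background around a region, and the level of that background at ZHX2 was not tested.

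**Figure D1:**
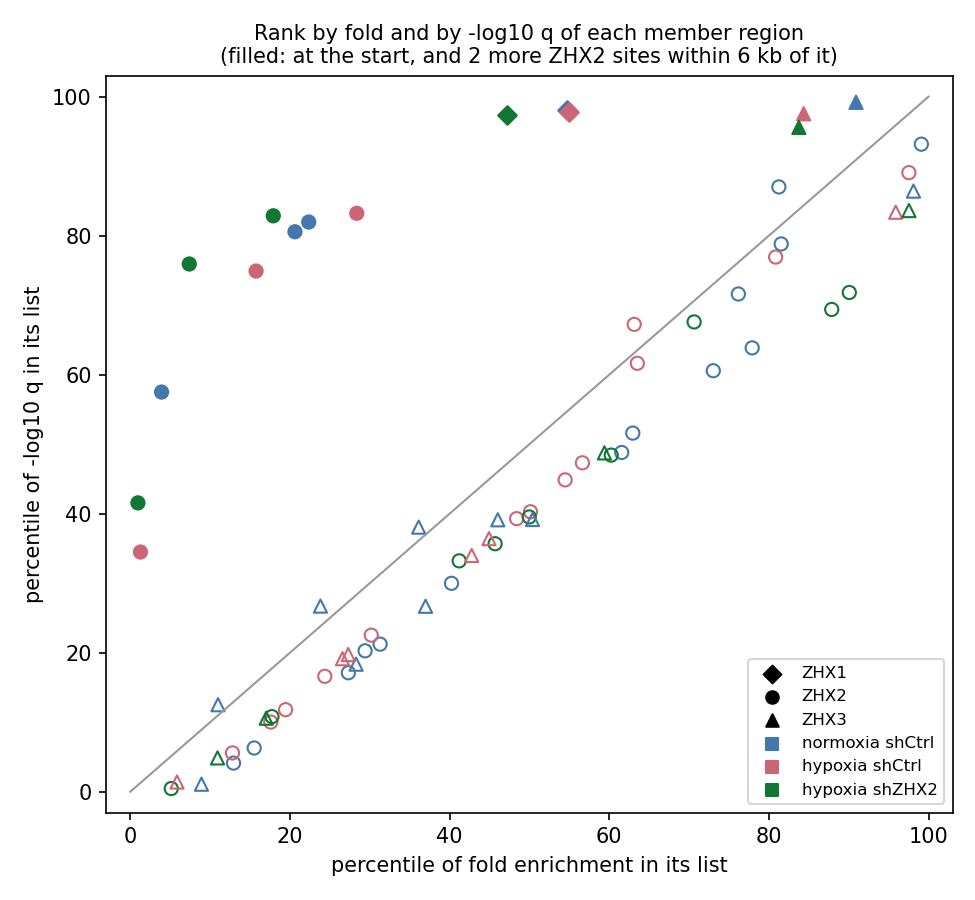
Percentile of fold enrichment (x axis) against percentile of −log10 q (y axis) of every member region within its own list; shapes are genes, colours are lists, and the line marks equal ranks. Filled points are the start regions and 2 more ZHX2 sites near its start. The filled ZHX2 circles and the ZHX1 diamonds sit far above the line, the ZHX2 start at 28.4 and 83.2 in hypoxia with shCtrl, while most open points lie near or below it.

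Inside ZHX2 the strongest site by fold lay 14.8 kb after the start, at chr8:122794962-122795478 in hypoxia with shCtrl. Its fold was 10.4 in normoxia, 9.44 in hypoxia with shCtrl and 8.30 with shZHX2, and its −log10 q was 337, 248 and 103. It was highest in normoxia and lowest with shZHX2, the reverse of the order at the start. A site 129.6 kb after the start, at chr8:122909398-122910458 in hypoxia with shCtrl, had folds of 6.34, 5.04 and 6.19. There the shZHX2 fold was close to normoxia, and the fold in hypoxia with shCtrl was the lowest. Its −log10 q was 215, 81.6 and 85.6, so by this measure shZHX2 was close to hypoxia with shCtrl and below normoxia. Further sites called in every list lay 36.8, 48.1, 77.9, 104.8 and 189.8 kb after the start. Their folds in normoxia were 5.61, 6.03, 5.88, 4.88 and 3.26. Exon positions were not used here, so these sites are given only as lying within the gene span.

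Outside its span ZHX2 had 1 site on each side. The upstream site lay 46385 bp before the gene in normoxia, at chr8:122732631-122733994, near the limit of 50 kb. Its fold was 6.37, 6.48 and 7.97 in normoxia, hypoxia with shCtrl and hypoxia with shZHX2, and its width was 1364, 1242 and 484 bp. The shZHX2 region covered 0.390 of the width in hypoxia with shCtrl, a width ratio at percentile 1.48 of all sites shared by those lists. The downstream site, 14221 bp after the gene, had folds of 4.79 in normoxia and 4.26 in hypoxia with shCtrl and was not called with shZHX2. Just beyond the limit, a region 58273 bp before ZHX2 had folds of 3.45 in normoxia and 2.68 in hypoxia with shCtrl and was also not called with shZHX2.

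**Figure D2:**
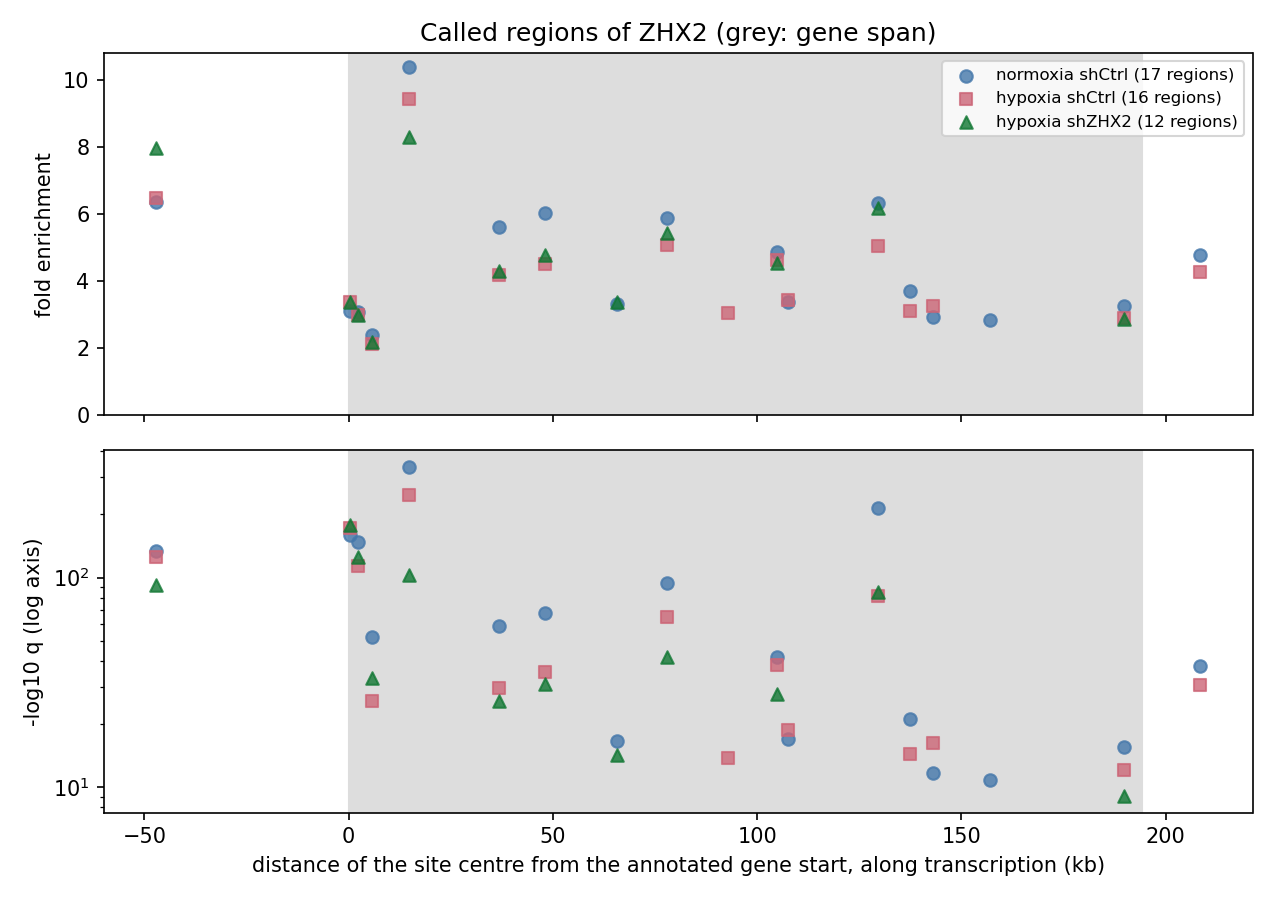
Fold enrichment (upper panel) and −log10 q on a log axis (lower panel) of every ZHX2 region against the distance of its site from the annotated start in kb; colours and shapes are the 3 lists, and the grey band is the gene span. The site at 14.8 kb reaches a fold of 10.4 in normoxia, and the sites near the start lie between 2.14 and 3.39.

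At ZHX3 5 of 10 sites were called in every list, beside 11 of 18 at ZHX2 and 58.4% of all sites. These shares rest on few sites and are not read as a trait of the gene. ZHX3 (gene ID 23051; chr20:41178455-41317731) spans 139277 bp and had 10 regions in normoxia, 7 in hypoxia with shCtrl and 5 with shZHX2, all within the span. Among 1266 genes of similar length, the median numbers of regions in the span were 4, 4 and 3. Of all 20036 protein-coding genes, 2856 (14.3%) had fewer regions in hypoxia with shCtrl than in normoxia and fewer still with shZHX2. Among the 1560 with 10 or more normoxia regions, 983 (63.0%) had counts in this order. Choosing genes by a high normoxia count favours this order, as does the falling length of the lists. The region over the ZHX3 start lay at chr20:41316941-41318120 in normoxia, chr20:41316898-41318125 in hypoxia with shCtrl and chr20:41316923-41318050 with shZHX2. Its fold was 7.57, 6.85 and 7.42, and its −log10 q was 767, 549 and 457. By −log10 q it stood at percentiles 99.2, 97.5 and 95.6 of its lists, the strongest call of any member in normoxia, while ZHX1 was stronger in the other lists at 576 and 583.

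The RefSeq promoter table gives ZHX3 a pair of starts on the minus strand, and the accessible region covered only one of their promoters. The 250 bases before each start are shown because they differ in composition and in accessibility, beside those of HOMEZ, a relative with homeodomains and leucine zippers, for comparison. Capitals mark CCAAT (the NF-Y box), ACGTG (the core of the hypoxia response element) and GGGCGG (the GC box), searched on both strands; no 2 kinds of motif overlapped in these windows. The windows are chr20:41317732-41317981 and chr20:41300121-41300370 for ZHX3 and chr14:23286133-23286382 for HOMEZ, all minus strand, from RefSeq on GRCh38.p14. The table held these for ZHX3 and HOMEZ.
ZHX3 outer start: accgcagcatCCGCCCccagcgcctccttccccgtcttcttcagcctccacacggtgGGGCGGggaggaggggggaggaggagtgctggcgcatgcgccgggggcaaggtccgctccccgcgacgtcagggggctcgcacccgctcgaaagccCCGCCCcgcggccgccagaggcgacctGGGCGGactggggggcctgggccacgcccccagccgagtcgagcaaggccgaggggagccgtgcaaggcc
ZHX3 inner start: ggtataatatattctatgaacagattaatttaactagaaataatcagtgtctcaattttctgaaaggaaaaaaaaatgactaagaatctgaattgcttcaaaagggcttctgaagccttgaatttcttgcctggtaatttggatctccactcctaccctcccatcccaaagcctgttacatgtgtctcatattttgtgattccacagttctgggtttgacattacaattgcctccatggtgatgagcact
HOMEZ start: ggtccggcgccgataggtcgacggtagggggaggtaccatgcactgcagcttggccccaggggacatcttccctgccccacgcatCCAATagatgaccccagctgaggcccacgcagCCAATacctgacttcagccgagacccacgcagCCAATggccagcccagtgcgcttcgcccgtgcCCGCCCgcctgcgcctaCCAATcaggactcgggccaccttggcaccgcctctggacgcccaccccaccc

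The outer ZHX3 promoter is 76.4% G and C and held 4 GC boxes, with no CCAAT and no ACGTG. It lay wholly within the called region in each list. The inner ZHX3 promoter is 36.8% G and C, held none of the 3 motifs and was touched by no called region. The nearest called region ended or began 140 bp away in normoxia, 358 bp away in hypoxia with shCtrl and 156 bp away with shZHX2, with folds of 3.94, 3.32 and 3.37. The HOMEZ promoter held 4 CCAAT boxes and 1 GC box, and its region had folds of 7.83, 7.60 and 7.70. HOMEZ was picked out after its sequence was seen. Of 35116 RefSeq promoters of the same length, 32.0% held CCAAT, 18.5% ACGTG and 42.6% GGGCGG. Among them 0.874% held 4 or more CCAAT, and 7.63% held 4 or more GC boxes, as the outer ZHX3 promoter did. A match of letters is not a binding site, and the absence of one says nothing of the factor.

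The strongest site inside ZHX3 by fold lay 85 kb after the outer start, at chr20:41232328-41232845 in hypoxia with shCtrl. Its fold was 9.61, 8.81 and 10.3 in normoxia, hypoxia with shCtrl and hypoxia with shZHX2, and its −log10 q was 207, 174 and 186. By fold it was the counterpart in rank of the ZHX2 site at 14.8 kb, but here the shZHX2 fold was the highest. Its −log10 q was highest in normoxia, as at that ZHX2 site. A site 49.4 kb after the start had folds of 4.15, 4.01 and 5.38 and widths of 377, 810 and 955 bp. It was wider in both hypoxia lists: the width ratio of hypoxia with shCtrl over normoxia, 2.15, stood at percentile 99.7 of shared sites. A site 67.8 kb after the start had widths of 846, 515 and 269 bp, in the opposite order, and folds of 3.55, 3.34 and 3.14. A further site, 11603 bp before ZHX3 in normoxia, lay slightly nearer to LPIN3 (11017 bp) and was not counted; its folds were 4.49, 3.99 and 4.13.

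**Figure D3:**
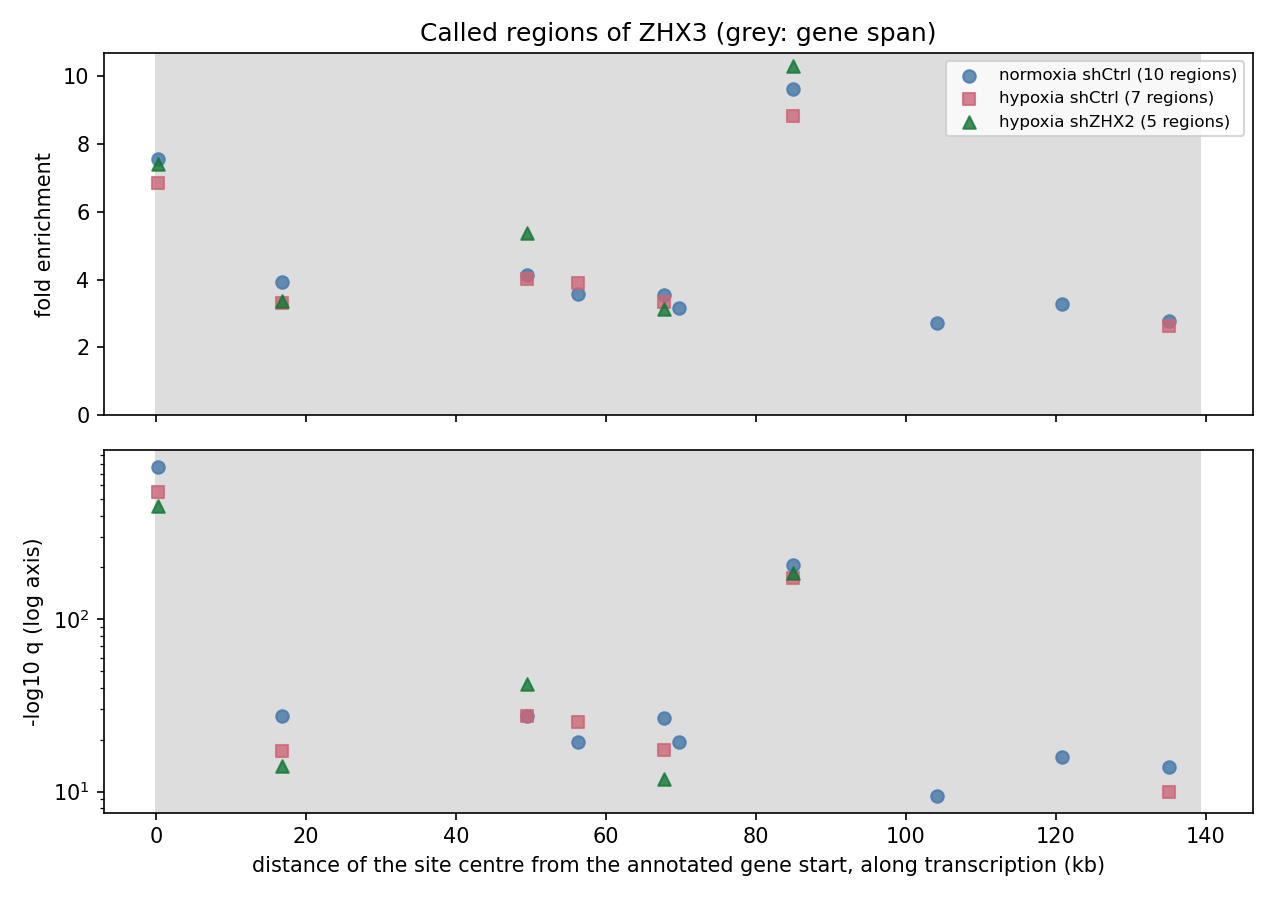
Fold enrichment (upper panel) and −log10 q on a log axis (lower panel) of every ZHX3 region against the distance of its site from the annotated outer start in kb; colours and shapes are the 3 lists, and the grey band is the gene span. The start and the site at 85 kb stand above the rest. Of the sites beyond 100 kb, those at 104.1 and 120.8 kb were called in normoxia alone and that at 135.1 kb in both shCtrl lists. They stood in normoxia score deciles 1 and 2, where 87.1% and 78.8% of all regions were not called with shZHX2.

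ZHX sites of the shCtrl lists were first compared between normoxia and hypoxia. Of the 28 normoxia regions, 5 (17.9%, Wilson 95% interval 7.88 to 35.6) were not called in hypoxia, against 20.6% of all normoxia regions. They were 2 of 17 at ZHX2, 3 of 10 at ZHX3 and 0 of 1 at ZHX1. The ZHX2 sites lay 65.7 kb after the start (fold 3.33 in normoxia) and 156.9 kb after it (fold 2.85). The ZHX3 sites lay 69.7, 104.1 and 120.8 kb after the start, with folds of 3.16, 2.71 and 3.29. All 5 were weak calls, with −log10 q from 9.41 to 19.5, in the lowest 3 score deciles of the list. From the rates of all regions in the same deciles, 6.77 uncalled regions would be expected among the 28.

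In the other direction, 1 of 24 hypoxia regions (4.17%, interval 0.739 to 20.2) was not called in normoxia, against 6.44% of all. It was a ZHX2 region 92.8 kb after the start, at chr8:122873085-122873352, with a fold of 3.05 and a −log10 q of 13.8, in the lowest decile. It was also not called with shZHX2, so it is the site that hypoxia with shCtrl alone called. At both ends of the comparison the share of ZHX regions lay below the share of the list, and the list's share fell within the interval. Intervals cover counting error only, since regions of one gene are not replicates.

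At the 23 sites called in both shCtrl lists, fold was lower in hypoxia at 17 (73.9%) and higher at 6, and it was lower at 55.8% of all shared sites. The median log2 ratio of hypoxia over normoxia was -0.12, beside -0.03 over all 71556 shared sites. For ZHX2 alone 11 of 15 were lower and the median was -0.17, and for ZHX3 6 of 7 were lower and the median was -0.09. The largest differences were at the ZHX2 sites 36.8 kb and 48.1 kb after the start. The former had a fold of 5.61 in normoxia and 4.18 in hypoxia (log2 ratio -0.43, percentile 6.26 of shared sites). The latter had 6.03 and 4.51 (-0.42, percentile 6.47). The ZHX2 start was among the 6 higher sites, at 0.11, and the ZHX1 start at 0.05, while the ZHX3 start was lower, at -0.14.

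Within hypoxia, the shZHX2 list was then set against the shCtrl list. Of the 24 hypoxia shCtrl regions, 7 (29.2%, interval 14.9 to 49.2) were not called with shZHX2, against 25.0% of all. They were 5 of 16 at ZHX2, 2 of 7 at ZHX3 and 0 of 1 at ZHX1. The ZHX2 regions lay 92.8, 107.6, 137.5 and 143 kb after the start and 14339 bp beyond the gene, with folds of 3.05, 3.43, 3.11, 3.25 and 4.26 in hypoxia with shCtrl. The ZHX3 regions lay 56.3 and 135.1 kb after the start, with folds of 3.91 and 2.63. These sites were in the bodies and flank of the genes, and none was a start. The start regions stood in score deciles 9 and 10 of the list. In each of those deciles only 0.0387% of all regions were not called with shZHX2, so a call at every start was usual for regions of that rank.

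The uncalled regions lay in the lower score deciles, none above the fifth, but were not the weakest throughout. Their −log10 q in hypoxia with shCtrl ran from 9.97 to 30.6, while regions also called with shZHX2 started at 12.1, so the ranges overlapped. In the whole list 73.0% of the lowest decile was not called with shZHX2, 20.1% of the fifth and 0.0387% of the highest. Summing such rates over the 24 regions gave 7.23, beside the 7 observed. The shZHX2 list is also the shortest, and sequencing depth is unknown for all 3. When each list was reduced to the length of the shortest by score, ZHX regions numbered 17 in normoxia, 19 in hypoxia with shCtrl and 18 with shZHX2, so the falling order of the full lists was not kept, and 3 of the 19 were not called with shZHX2, against 14.9% of all regions in that setting. In the stronger 50% of each list 0 of 9 hypoxia shCtrl regions of the ZHX genes were uncalled, where only 2.11% of all were.

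One region of the 18 with shZHX2 (5.56%, interval 0.988 to 25.8) was not called in hypoxia with shCtrl, against 7.11% of all. It lay 65.7 kb after the ZHX2 start, at chr8:122846046-122846328, with a fold of 3.39 and a −log10 q of 14.2. The same site was called in normoxia, with a fold of 3.33, so it was missing only in hypoxia with shCtrl.

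**Figure D4:**
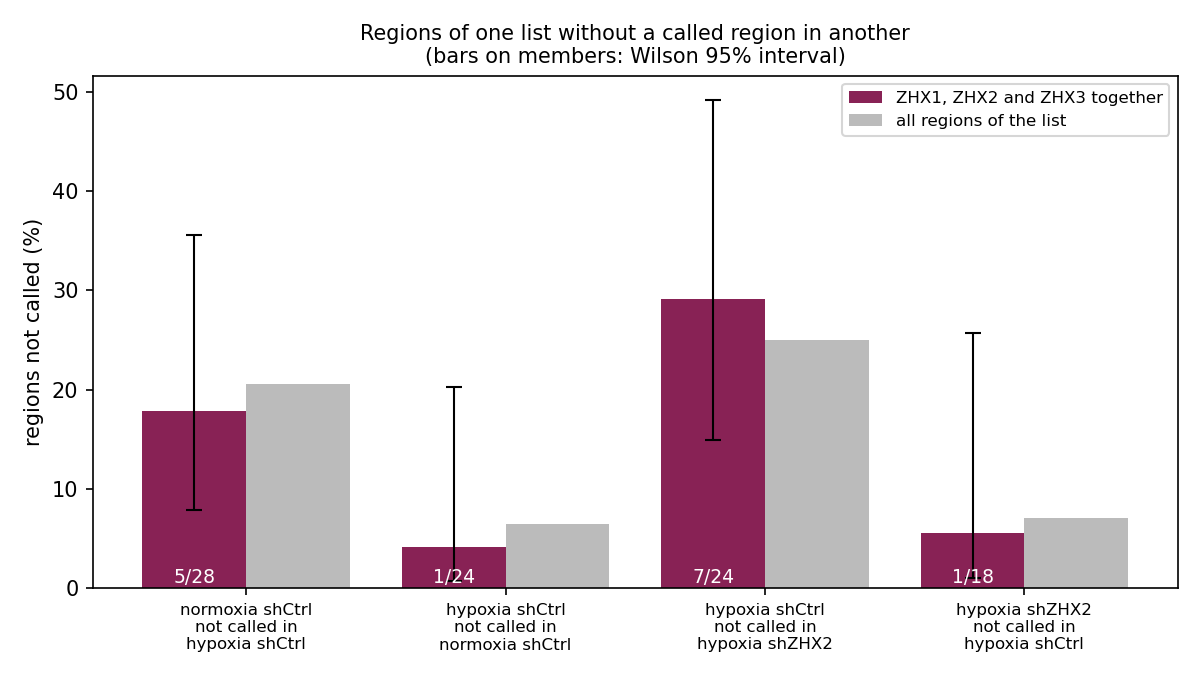
Percent of regions of one list (y axis) that had no called region in another, for the regions of ZHX1, ZHX2 and ZHX3 together and for all regions of the list; error bars are Wilson 95% intervals and the fractions give counts. The 4 pairs lie close, for example 29.2% of ZHX regions and 25.0% of all for hypoxia shCtrl regions not called with shZHX2.

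At the 17 sites called in both hypoxia lists, fold was higher with shZHX2 at 12 (70.6%) and lower at 5, against 61.6% higher over all shared sites. The ZHX sites had a median log2 ratio of 0.03 beside 0.05 over all 57122 shared sites. That was near the median of all shared sites. The log2 ratio of −log10 q had a median of -0.21 at the ZHX sites, beside -0.22 over all shared sites. At the median, fold was thus slightly higher with shZHX2 while −log10 q was lower. For ZHX2 the median log2 fold ratio over 11 sites was 0.03, and for ZHX3 over 5 sites it was 0.12. The ZHX2 start, 0.01, the ZHX1 start, 0.03, and the ZHX3 start, 0.12, all stood between percentiles 40.2 and 62.6 of shared sites. The lowest ratio was at the ZHX2 site 14.8 kb after the start (-0.19, percentile 16.5). The highest was at the ZHX3 site 49.4 kb after the start (0.42, percentile 94.5), followed by the ZHX2 site upstream of the gene and the ZHX2 site at 129.6 kb, both at 0.30. From shCtrl to shZHX2 in hypoxia, −log10 q went from 27.3 to 42.2 at the first of them. It went from 125 to 92.3 at the upstream site and from 81.6 to 85.6 at the site at 129.6 kb.

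**Figure D5:**
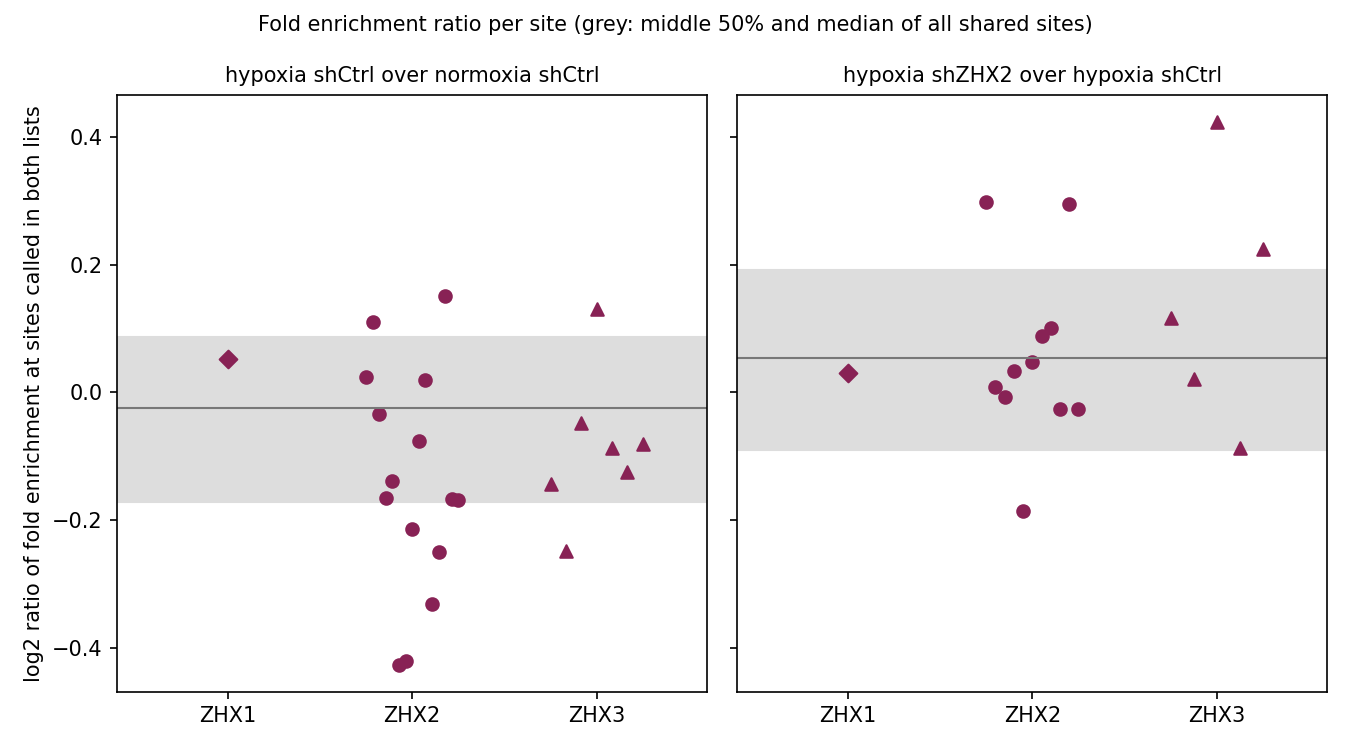
Log2 ratio of fold enrichment at each ZHX site called in both lists (y axis), by gene, for hypoxia over normoxia in shCtrl cells (left) and shZHX2 over shCtrl in hypoxia (right); the line and grey band are the median and middle 50% of all shared sites. On the left 17 of 23 points are below 0 (55.8% of all shared sites are), and on the right 12 of 17 are above it (61.6% of all).

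The comparisons with hypoxia shCtrl share that list, so normoxia was also set directly against hypoxia with shZHX2, a pair that differs in both oxygen and hairpin. Of the 28 normoxia regions, 10 (35.7%, interval 20.7 to 54.2) were not called with shZHX2, against 34.5% of all. They were 5 of 17 at ZHX2 and 5 of 10 at ZHX3, where from score deciles 5.39 and 5.34 would be expected. None of the 18 shZHX2 regions was missing from normoxia, which allows a share of up to 16.7%, against 4.39% of all. Every ZHX region of the shZHX2 list was thus also a normoxia region.

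Genes tied to ZHX proteins were read from a list of 20. It held HOMEZ, the NF-Y subunits NFYA, NFYB and NFYC, the binding partners DNMT3B, ZMYND11 and EFNB1, the oxygen-sensing genes VHL, EGLN1, EGLN2 and EGLN3, the deubiquitinase USP13, the transcription factors HIF1A, EPAS1, ARNT and RELA, and the genes AFP, GPC3, H19 and LPL, which are linked to ZHX2 in liver. A region within 1 kb of a gene end was called for 17 of the 20 in each list, and ZMYND11, AFP and LPL had none; the shares over all protein-coding genes are those given above for the ZHX starts (74.2%, 72.3% and 70.0%). The 19 protein-coding genes of the list had 88 normoxia regions, 71 hypoxia shCtrl regions and 55 shZHX2 regions.

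At 13 of these genes, 20 normoxia regions (22.7%) lacked a call in hypoxia. The reverse held for 3 hypoxia regions (4.23%), at EGLN2, EGLN3 and USP13. With shZHX2, 21 of the 71 hypoxia regions (29.6%) at 10 genes were not called, and 3 regions (5.45%), at NFYB, HIF1A and EPAS1, were called with shZHX2 and not with shCtrl. USP13, which removes ubiquitin from ZHX2, had 12, 11 and 6 regions in normoxia, hypoxia with shCtrl and hypoxia with shZHX2, with 5 of the 11 not called with shZHX2. EGLN3, a prolyl hydroxylase induced by hypoxia, had 5, 6 and 3, with 3 of the 6 not called. Both shares exceed the 25.0% of all regions but rest on few regions. Other genes of the list ranged widely: EFNB1 and GPC3 each lacked 2 of 4, EPAS1 3 of 7 and ZMYND11 1 of 8. At HOMEZ, NFYA, NFYB, DNMT3B, VHL, HIF1A, RELA and AFP the number was 0. Whether USP13 or EGLN3 differs from other genes in this respect was not tested. NFYA, the subunit that ZHX proteins bind, had 2 in each list. The shares of the list as a whole, 22.7%, 4.23%, 29.6% and 5.45%, lay within 5 percentage points of those of all regions. Those were 20.6%, 6.44%, 25.0% and 7.11% in the same order.

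The labelled cell type was checked at gene ends of markers. Of 10 luminal genes 9 had a called end in every list; the tenth, ESR1, had 25, 13 and 14 regions inside its span or flanks instead. Of 6 basal or mesenchymal genes 3, 2 and 1 had a called end, and of 4 blood genes PTPRC, CD3E and SPI1 had one in every list. With 70.0% or more of all protein-coding genes having a called end, these counts do not separate the cell types.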

How the data were processed

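Per the labels, ATAC-seq was run on 9 T47D samples, 3 per group. The authors deposited 1 list of regions per group, with no header and 9 columns. The submitters' processing notes name FastQC, Bowtie2, SAMtools, MACS2 and the build hg38. The sources used here do not give read depth, caller settings, any shift of read positions or how a group's samples became 1 list. The deposited columns used were the authors' score (by its values, 10 times the −log10 q as a whole number), the authors' fold enrichment (a ratio to local background) and the authors' −log10 q. The score set the deciles, and fold and −log10 q described and ranked regions. Values per sample were not analysed here, so no test was run.

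Regions were assigned to genes with the RefSeq table of GRCh38.p14, which shares coordinates with hg38, using Python 3.11.15, pandas 2.3.3 and numpy 2.4.6. The table gives no strand: the start of ZHX3 came from the promoter table, and those of ZHX1 and ZHX2 are background knowledge. The readthrough ZHX1-C8orf76 was no competitor. A region was called in another list when they shared at least 1 bp. Fold ratios used sites with 1 region in each list. Expected numbers gave each region the uncalled rate of its score decile. Wilson 95% intervals (scipy 1.17.1) and the limit for a count of 0 (3 counts) cover counting error only. Overlap and assignment steps were tested on simulated intervals. Members, lists and alternatives were chosen with earlier results of these data known. Genes named are ZHX1, ZHX2, ZHX3, the nearest protein-coding gene on either side of each, the list of tied genes and the cell type markers, with list members named where their calls differed or illustrate a role. Alternatives changed the flank, the assignment, the overlap and the length of the lists. Sequences at ZHX1 and ZHX2 were not used here.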

Additional observations from a re-analysis of the deposited data

How the results depend on the processing

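No paired analysis was possible because each group has 1 list with no values per sample, and leaving out a replicate was not possible for the same reason. Of 57 counts recomputed, 33 stayed within 1.5 times the reported one and 24 did not. A flank of 20 kb, the gene span alone, counting non-coding genes as competitors, and joining regions within 500 bp moved no count by more than 1.5 times. Assignment by the nearer gene end, which drops regions deep inside a long gene, gave 17 normoxia and 14 hypoxia shCtrl regions; 3 of the former were not called in hypoxia (20.6% of all), 0 of the latter in normoxia (6.44%), 2 with shZHX2 (25.0%), and 0 of 12 shZHX2 regions were uncalled with shCtrl (7.11%). In the stronger 50% of each list the genes had 13, 9 and 8 regions, with 0 not called in each direction, where 0.602%, 0.116%, 2.11% and 0.159% of all were. When lists were reduced by score to the length of the shortest, the genes had 17 normoxia regions, with 0 not called in hypoxia (10.9% of all regions), 2 of 19 hypoxia regions not in normoxia (10.7%), 3 of 19 not with shZHX2 (14.9%) and 2 of 18 shZHX2 regions not with shCtrl (14.5%). Reduced by fold, they were 0 of 17 (12.6%), 2 of 19 (12.4%), 5 of 19 (17.4%) and 4 of 18 (17.1%). Requiring overlap of 50% of the region gave 2 of 24 hypoxia regions not in normoxia (7.24% of all) and 2 of 18 shZHX2 regions not with shCtrl (8.33%). Shorter lists hold fewer weak regions by construction; other causes were not tested. Counts this small, 1 to 7, limit every share, and the read depth is unknown.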

Other observations

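The nearest protein-coding genes on either side of ZHX1, ZHX2 and ZHX3 were C8orf76, ATAD2, HAS2, DERL1, PLCG1 and LPIN3. Each had a called gene end in every list. Together they had 24 normoxia regions, 20 hypoxia shCtrl regions and 16 shZHX2 regions. Of these, 5 normoxia regions (20.8%, against 20.6% of all) were not called in hypoxia and 1 hypoxia region (5%, against 6.44%) was not called in normoxia. With shZHX2, 4 hypoxia regions (20%, against 25.0%) were not called, and 0 of the 16 shZHX2 regions, against 7.11% of all, were absent from hypoxia with shCtrl. ATAD2, a bromodomain ATPase, had 8, 6 and 4 regions, the most of them in normoxia and hypoxia with shCtrl. HAS2, a hyaluronan synthase 1138939 bp before ZHX2, had 2 in each list.

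Over the ATAD2 side of ZHX1, a region 35056 bp from ZHX1 in normoxia had folds of 6.63, 6.44 and 7.68 in normoxia, hypoxia with shCtrl and hypoxia with shZHX2. Beside ZHX2, a site nearer to DERL1, an endoplasmic reticulum protein gene, had folds of 3.96, 3.50 and 2.85. By the PLCG1 end, 4869 bp from ZHX3 in normoxia, the folds were 7.61, 7.56 and 7.93.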
